A study of Fagopyrum tataricum with 9 samples.

Results

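The 3 genes described here, Novel02020, FtPinG0000807700.01 and FtPinG0008443000.01, are those that the study of tartary buckwheat (Fagopyrum tataricum) seeds named as auxin response factors (ARFs). They were chosen by these identifiers and make up 3 of the 33940 genes in the deposited files, and all 3 were among the 23609 genes with enough reads to be tested. The RNA of whole seeds of the cultivar XIQIAO NO.2 was sequenced at the green fruit stage, 13 days postanthesis (DPA), at the discoloration stage, 19 DPA, and at the initial maturity stage, 25 DPA. Each stage had 3 libraries, and per the labels the seeds of a stage came from 3 field-grown plants, while the stages were collected from the same individual. No treatment or genetic change separated the groups, so the stages differed only in seed age as far as the labels say. The study introduced these genes as differentially expressed genes (DEGs) in these same libraries, so the tests below are not independent evidence of their direction. The assignment to the ARF family also has a limit, since the text of the study gives the 3 genes as ARFs while its supplementary list of hormone genes puts them in the Aux/IAA family.

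Auxin enters plant cells partly through AUX1-type influx carriers and leaves them through efflux carriers. Inside the nucleus it joins TIR1-type receptors to Aux/IAA proteins, which are then degraded. Aux/IAA proteins repress ARFs, the transcription factors that bind auxin response elements in promoters and that activate or repress early auxin genes such as the ARG7 (SAUR-type) family. In developing seeds this pathway is known for its part in cell division and enlargement of the embryo and endosperm. ARFs and Aux/IAAs share a dimerization domain, through which they bind each other. Which ARF of other plants each of the 3 genes corresponds to was not analysed here.

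The 3 ARF genes differed in both level and course. Novel02020, a gene absent from the reference annotation and predicted by the study's own transcript assembly, was the most abundant of the 3 in all 9 libraries on the length-corrected scale of FPKM (fragments scaled by transcript length and by the mapped fragments of the library). Its 25 and 19 DPA levels differed by less than the spread between libraries. The annotated genes FtPinG0000807700.01 and FtPinG0008443000.01 started at similar levels at 13 DPA and were both lower at 25 DPA than at either earlier stage, the second of them down to 1 to 3 reads per library. In whole seeds, fewer cells that express a gene and less RNA of it per cell cannot be told apart.

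Novel02020 had 11.8, 10.7 and 11.8 FPKM in the 3 libraries at 13 DPA, 15.7, 15.2 and 13.6 FPKM at 19 DPA, and 21.5, 17.7 and 8.32 FPKM at 25 DPA. The libraries of 13 and 19 DPA lay close together within their stage, and every 19 DPA library was above every 13 DPA library, which held for 4.69% of all tested genes. The 25 DPA libraries were spread widely, with replicate 3 below all the others of the series and replicates 1 and 2 above them. The stage means were 11.4 ± 0.674, 14.8 ± 1.06 and 15.8 ± 6.77 FPKM over the 3 stages in order of age (SD, n = 3 each). The coefficient of variation was thus 42.8% at 25 DPA and at most 7.13% at the earlier stages.

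The reads of Novel02020 numbered 626, 604 and 571 at 13 DPA and 782, 768 and 668 at 19 DPA, whereas the 25 DPA libraries held 1053, 919 and 432. The exact 95% Poisson interval, which covers counting error only and not the differences between seed samples, was 990.4 to 1119 reads for replicate 1 of 25 DPA and 392.2 to 474.7 reads for replicate 3, whereas the intervals of the 3 libraries of 13 DPA overlapped. Novel02020 exceeded 63.9% to 67.8% of all genes in FPKM at 13 DPA, whereas it exceeded 78.8% to 84.9% of them at 19 DPA and 76.9% to 88.4% of them at 25 DPA. Its rank among all genes was therefore higher in each library of the later stages than in any library of 13 DPA. How many genes gained rank in this way was not computed. On the scaled counts introduced below (TMM-scaled CPM), 15.8% of all tested genes were higher without overlap at 19 DPA than at 13 DPA. For 25 DPA vs 13 DPA this share was 28.9%.

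FtPinG0000807700.01 had 3.41, 2.62 and 6.68 FPKM at 13 DPA, 1.76, 1.28 and 2.095 FPKM at 19 DPA, and 0.400, 0.688 and 0.336 FPKM at 25 DPA. The stages did not overlap, each later one lying lower, and replicate 3 of 13 DPA was high within its stage. Such a lack of overlap with the later stage lower was common, applying to 57.3% of all tested genes for 19 DPA vs 13 DPA, to 33.7% for 25 DPA vs 19 DPA and to 65.7% for 25 DPA vs 13 DPA. The means were 4.24 ± 2.15, 1.71 ± 0.411 and 0.475 ± 0.188 FPKM (SD, n = 3 each). The corresponding reads per library numbered 204 to 443, 89 to 141 and 24 to 49 from the youngest to the oldest stage. This gene exceeded 46.9% to 53.9% of all genes in FPKM at 13 DPA and 39.5% to 42.7% at 25 DPA, so it moved from the middle of the ranking to somewhat below it.

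FtPinG0008443000.01 had 4.48, 2.41 and 5.90 FPKM at 13 DPA, 1.73, 0.278 and 0.809 FPKM at 19 DPA, and 0.0179, 0.0340 and 0.0509 FPKM at 25 DPA. Again the stages did not overlap, but the 19 DPA libraries differed widely from one another, replicate 1 having the highest and replicate 2 the lowest level. Its means were 4.26 ± 1.75, 0.939 ± 0.734 and 0.0343 ± 0.0165 FPKM (SD, n = 3 each). The reads behind these values numbered 269, 155 and 323 at 13 DPA and 98, 16 and 45 at 19 DPA, whereas the 25 DPA libraries held 1, 2 and 3. At 25 DPA the gene was therefore close to the limit of detection, since a count of 0 allows up to 3 reads per library (one-sided 95% limit). Its level there carries two-sided 95% counting intervals of 0.0253 to 5.57 reads in replicate 1 and 0.619 to 8.77 reads in replicate 3.

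**Figure D1:**
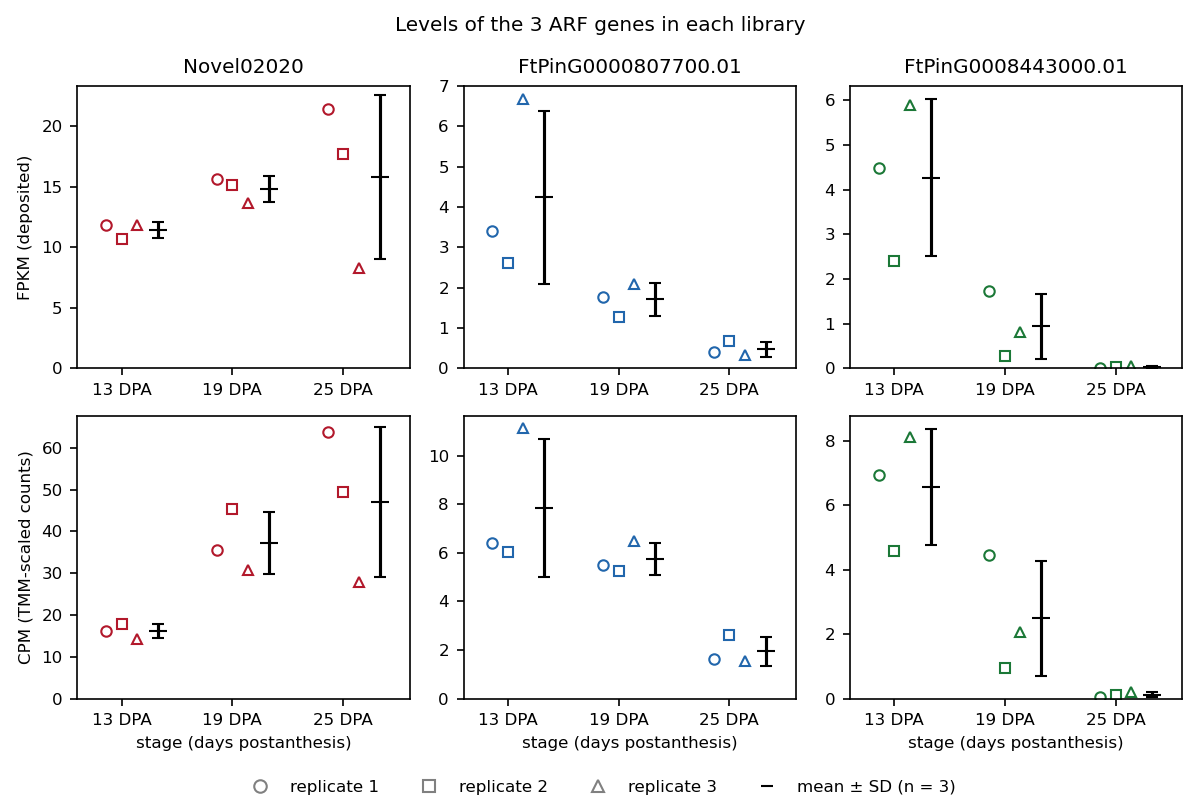
Level of each ARF gene in every library at 13, 19 and 25 DPA, as deposited FPKM (upper row) and as CPM, the counts scaled to a common library size after correction by trimmed mean of M values (TMM, lower row). Each symbol is 1 library, and the black bar with its line gives the mean ± SD of 3 libraries. Novel02020 averages 16.1, 37.2 and 47.0 CPM over the stages, with a wide spread at 25 DPA, while the other genes average 1.94 and 0.121 CPM at 25 DPA.

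The comparisons between stages were tested on the read counts. In edgeR's quasi-likelihood test, a gene was a DEG when its false discovery rate did not exceed 0.05 and its log2 fold change reached 1 in size, where a positive fold change means higher at the later stage. Read totals were even, at 22002318 to 25811462 per library, but the TMM factors that offset the pull of a few very abundant genes on the rest differed between stages, being 1.31 to 1.81 at the green fruit stage, 0.733 to 0.971 at the discoloration stage and 0.652 to 0.788 at initial maturity. TMM holds the bulk of the genes level, so that the median log2 fold change of all tested genes lay between -0.07 and -0.02 in the 3 comparisons. With the read totals alone, as in FPKM, this median fell to -0.85 for 19 DPA vs 13 DPA, -0.32 for 25 DPA vs 19 DPA and -1.19 for 25 DPA vs 13 DPA, and the values with read totals are therefore given beside those with TMM.

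Novel02020 was higher at 19 DPA than at 13 DPA. It averaged 37.2 ± 7.43 TMM-scaled CPM at 19 DPA and 16.1 ± 1.76 at 13 DPA (SD, n = 3 each), a log2 fold change of 1.21 (SE 0.29) with an adjusted p of 0.0327 in edgeR's quasi-likelihood test. It was the only DEG of the 3 ARF genes in this comparison, in which 8.57% of all tested genes were DEGs, 4.11% higher and 4.46% lower at 19 DPA. The call depended on the scaling, since the log2 fold change was 0.37 with an adjusted p of 0.306 when read totals were used. It also depended on single libraries: leaving out replicate 1 or replicate 3 of 13 DPA raised the adjusted p to 0.116 or 0.101, and leaving out replicate 1 or replicate 2 of 19 DPA raised it to 0.0685 or 0.105. A change of scaling moves the log2 fold changes of all genes by nearly the same amount, so it leaves a gene's place largely unchanged. Novel02020 exceeded the log2 fold change of 91.3% of all genes with TMM and of 91.1% with read totals.

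FtPinG0000807700.01 averaged 5.75 ± 0.666 TMM-scaled CPM at 19 DPA and 7.86 ± 2.85 at 13 DPA (SD, n = 3 each), and the libraries of these stages overlapped on this scale. The log2 fold change was -0.45 (SE 0.31), with an adjusted p of 0.404 in edgeR's quasi-likelihood test. With read totals, under which 31.1% of all tested genes were lower DEGs, the gene was called lower at 19 DPA, with a log2 fold change of -1.31 and an adjusted p of 0.0284 in the same test. The gene was thus a DEG between these stages only when the general downward shift of the read totals was not removed. Without 13 DPA replicate 3, its highest library, the TMM-scaled difference shrank to -0.11 on the log2 scale.

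FtPinG0008443000.01 averaged 2.49 ± 1.78 TMM-scaled CPM at 19 DPA and 6.55 ± 1.80 at 13 DPA (SD, n = 3 each), and the stages did not overlap, as for 16.3% of all tested genes in this direction. The log2 fold change of -1.39 (SE 0.51) was past the fold limit, but its adjusted p of 0.120 in edgeR's quasi-likelihood test was not. It was -2.10 (adjusted p = 0.0522 in edgeR's test) without 19 DPA replicate 1 and -1.003 (adjusted p = 0.254) without 19 DPA replicate 2. Same-numbered libraries of 13 and 19 DPA deviated together, and with the replicate number as a block the gene was a DEG, with a log2 fold change of -1.55 and an adjusted p of 0.0460, while 5.51% of all tested genes were lower DEGs with this block. With read totals it was likewise called lower at 19 DPA, by a log2 fold change of -2.18 with an adjusted p of 0.0174 in the same test. Only 6.83% of all genes had a lower log2 fold change than this gene with TMM, and 7.04% with read totals.

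Between 19 and 25 DPA the order of the 3 genes stayed the same while the distances grew. Novel02020 averaged 47.0 ± 18.0 TMM-scaled CPM at 25 DPA and 37.2 ± 7.43 at 19 DPA (SD, n = 3 each), with overlapping libraries and a log2 fold change of 0.34 (SE 0.28, adjusted p = 0.366 in edgeR's quasi-likelihood test). This difference was 0.60 (adjusted p = 0.0712 in edgeR's test) without 25 DPA replicate 3 and 0.06 (adjusted p = 0.887) without 25 DPA replicate 1, so the libraries of 25 DPA set its size. With read totals it was 0.10. No rise or fall after 19 DPA could be shown for this gene at the given spread.

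FtPinG0000807700.01 fell to 1.94 ± 0.601 TMM-scaled CPM at 25 DPA, against 5.75 ± 0.666 at 19 DPA (SD, n = 3 each). The log2 fold change was -1.56 (SE 0.33) and the adjusted p 0.00621 in edgeR's quasi-likelihood test, and the gene stayed a DEG when any 1 of the 9 libraries was left out or when read totals were used (log2 fold change -1.85). FtPinG0008443000.01 fell to 0.121 ± 0.0679 TMM-scaled CPM at 25 DPA, against 2.49 ± 1.78 at 19 DPA, with a fitted log2 fold change of -4.33 (SE 0.70) and an adjusted p of 0.00204 in the same test. Taken as the pooled reads of each stage, 6 at 25 DPA and 159 at 19 DPA, the level was 22.1-fold lower with an exact 95% interval of 9.93 to 61.1 for counting error only, and 27.1-fold lower (12.2 to 74.9) with read totals. In this comparison 28.8% of all tested genes were DEGs, 9.27% higher and 19.5% lower at 25 DPA, so lower DEGs were common. Of all genes, 3.18% had a lower log2 fold change than FtPinG0008443000.01 and 17.7% a lower one than FtPinG0000807700.01.

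Across the whole span all 3 genes were DEGs, in a comparison in which 42.2% of all tested genes were DEGs, 16.6% higher and 25.6% lower at 25 DPA. Novel02020 had 63.7, 49.4 and 27.99 TMM-scaled CPM at 25 DPA, against 16.1, 17.9 and 14.4 at 13 DPA, and the log2 fold change was 1.54 (SE 0.29) with an adjusted p of 0.00194 in edgeR's quasi-likelihood test. The stages did not overlap on this scale, on which 28.9% of all tested genes were higher at 25 DPA without overlap. They overlapped in FPKM, and with read totals the log2 fold change was 0.47 with an adjusted p of 0.190, so that the higher level of Novel02020 at 25 DPA was a rise relative to the other genes of the seed. Leaving out any 1 library kept it a DEG with TMM, at log2 fold changes of 1.27 to 1.81.

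FtPinG0000807700.01 had 1.63, 2.63 and 1.56 TMM-scaled CPM at 25 DPA, against 6.40, 6.04 and 11.1 at 13 DPA, a log2 fold change of -2.01 (SE 0.33) with an adjusted p of 9.81e-04 in edgeR's quasi-likelihood test, and of -3.15 with read totals. FtPinG0008443000.01 had 0.0605, 0.107 and 0.194 TMM-scaled CPM at 25 DPA, against 6.94, 4.59 and 8.12 at 13 DPA, a log2 fold change of -5.72 (SE 0.70) with an adjusted p of 2.62e-04 in the same test, and of -6.86 with read totals. Both were called lower under each of the 13 other settings and each of the 9 omissions of a library. From the pooled reads, 6 at 25 DPA and 747 at 13 DPA, FtPinG0008443000.01 was 56.0-fold lower, with a counting interval of 25.6 to 153, and 120.7-fold lower (55.2 to 329.8) with read totals. Of all genes, 2.63% had a lower log2 fold change with TMM and 2.51% with read totals.

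**Figure D2:**
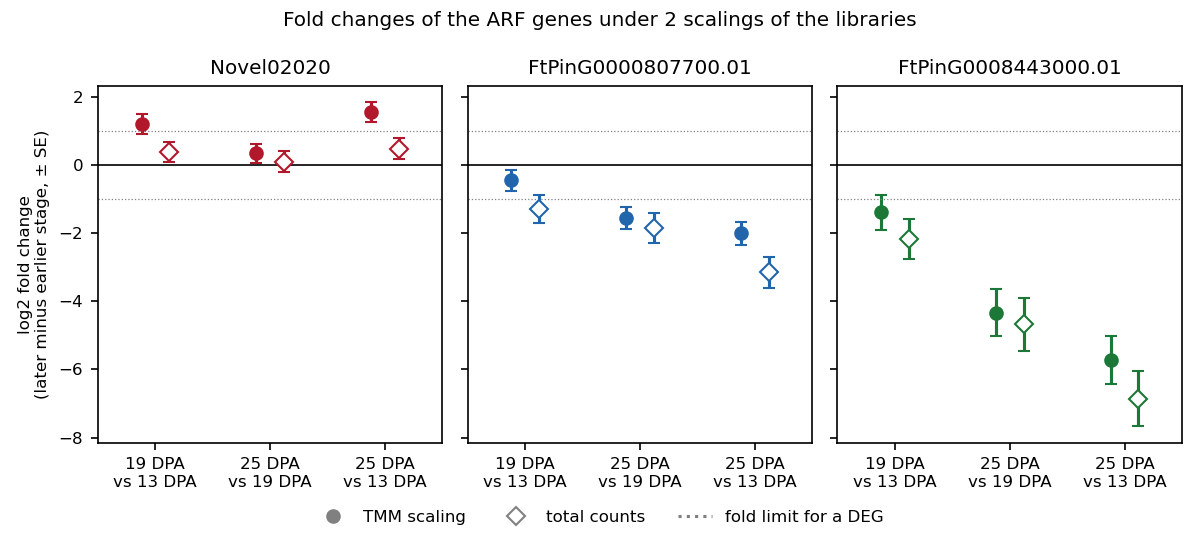
Log2 fold change of each ARF gene in the 3 comparisons of stages, later minus earlier, with its standard error from edgeR's fit over 9 libraries. Filled circles use TMM scaling, open diamonds use read totals, and dotted lines mark the fold limit of a DEG. Novel02020 lies above 0 throughout but passes the limit only with TMM, whereas FtPinG0008443000.01 lies lowest in every comparison.

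Ratios of the ARF genes within a library need no scaling between libraries, and they separated Novel02020 from the other genes. The log2 ratio of reads of Novel02020 over FtPinG0000807700.01, with 0.5 added to each count, was 1.33, 1.56 and 0.37 in the 13 DPA libraries, 2.69, 3.10 and 2.24 in the 19 DPA libraries, and 5.26, 4.22 and 4.14 in the 25 DPA libraries. The stages did not overlap, and the ratio was higher by 1.59 at 19 DPA than at 13 DPA and by 1.86 at 25 DPA than at 19 DPA. The log2 ratio of Novel02020 over FtPinG0008443000.01 was 1.22, 1.96 and 0.82 at the first stage, 2.99, 5.54 and 3.88 at the second, and 9.46, 8.52 and 6.95 at the last. It too had no overlap between stages, with differences of 2.80 and 4.17 for the same steps. Each of these 4 step differences had an exact permutation p of 0.1, two-sided, which is the smallest that 3 libraries against 3 allow, and an adjusted p of 0.112 over the 9 ratio comparisons made.

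The declining genes also parted from each other. The log2 ratio of FtPinG0000807700.01 over FtPinG0008443000.01 was -0.12, 0.40 and 0.46 in the 13 DPA libraries, 0.30, 2.44 and 1.64 in the 19 DPA libraries, and 4.20, 4.31 and 2.81 in the 25 DPA libraries. The 19 and 13 DPA libraries overlapped, with a difference of 1.22 (exact permutation p = 0.3, two-sided, adjusted 0.3). Within the 3 same-numbered pairs of libraries, which deviated together, the ratio was higher at 19 DPA in each, by 0.42, 2.04 and 1.18 (exact paired permutation p = 0.25, two-sided, the smallest that 3 pairs allow). At 25 DPA the ratio was higher than at 19 DPA by 2.31 without overlap (exact permutation p = 0.1, two-sided, adjusted 0.112). FtPinG0008443000.01 thus had the steeper decline after 19 DPA in these libraries.

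**Figure D3:**
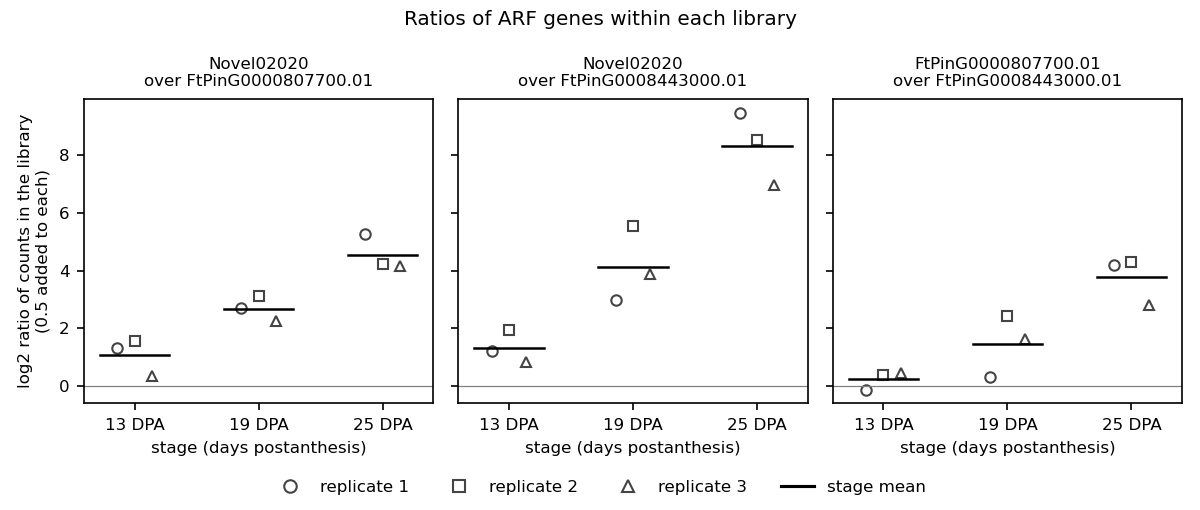
Log2 ratio of the reads of 1 ARF gene over another within each library, by stage, with 0.5 added to each count. Symbols are libraries and the line is the mean of 3. The ratio of Novel02020 over FtPinG0008443000.01 averages 1.33, 4.14 and 8.31 at 13, 19 and 25 DPA, and only the ratio of the other 2 genes overlaps between 13 and 19 DPA.

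The make-up of the summed ARF level changed accordingly, while the sum itself overlapped between all stages. The 3 genes summed to 19.7, 15.7 and 24.4 FPKM at 13 DPA, 19.2, 16.7 and 16.5 FPKM at 19 DPA, and 21.9, 18.5 and 8.70 FPKM at 25 DPA. Novel02020 held 48.5% to 67.9% of the sum in the libraries of 13 DPA, 81.8% to 90.7% in those of 19 DPA, and 95.5% to 98.1% in those of 25 DPA. FtPinG0000807700.01 held 20.5% ± 5.996, 9.84% ± 2.57 and 3.14% ± 1.14 at these stages (SD, n = 3 each). FtPinG0008443000.01 held a like share at 13 DPA, 20.7% ± 4.72, but 5.19% ± 3.69 at 19 DPA and 0.284% ± 0.266 at 25 DPA (SD, n = 3 each). Replicate 3 of 25 DPA, in which Novel02020 was lowest, thus had a make-up like that of the other 25 DPA libraries.

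**Figure D4:**
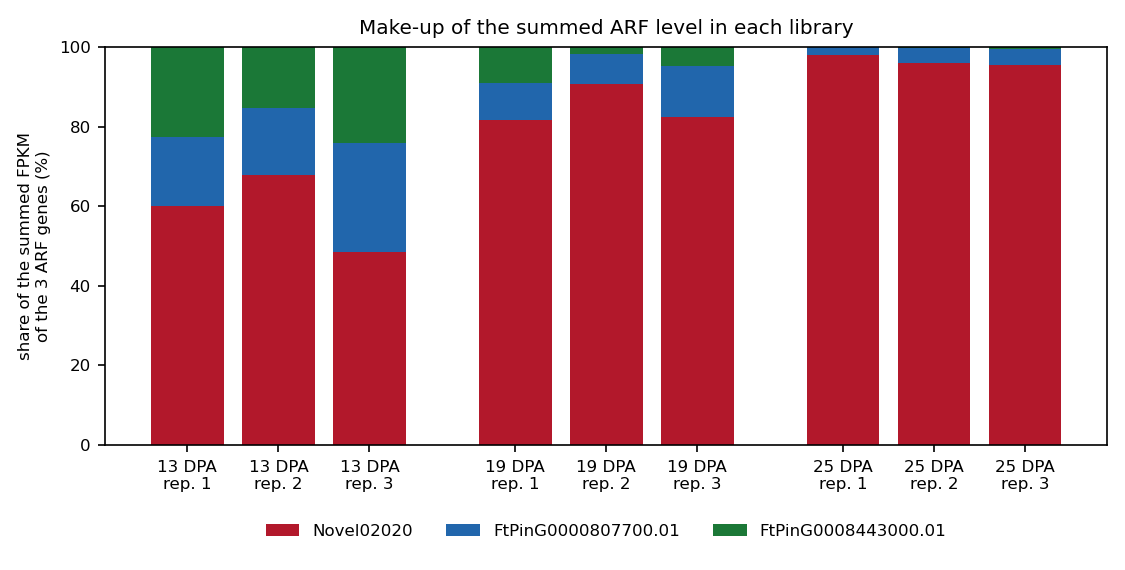
Share of each ARF gene in the summed FPKM of the 3 genes, in percent, for each of the 9 libraries from 13 to 25 DPA. Novel02020 holds 48.5% to 67.9% at 13 DPA and 95.5% to 98.1% at 25 DPA, while the share of FtPinG0008443000.01 at 25 DPA is at most 0.584%.

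The other auxin genes came from the study's own hormone list, which the study introduces as DEGs of these libraries although many listed genes had too few reads to be tested. Of its auxin identifiers 184 were matched and 114, the 3 ARF genes included, could be tested. At 19 DPA vs 13 DPA, 5 were higher and 5 lower DEGs, at 25 DPA vs 19 DPA 4 were higher and 33 lower, and at 25 DPA vs 13 DPA 13 were higher and 50 lower. The DEGs made up 8.77%, 32.5% and 55.3% of the listed genes tested, beside 8.57%, 28.8% and 42.2% of all tested genes. The median log2 fold changes of the listed genes were -0.30, -0.54 and -0.88 in these comparisons, beside -0.03, -0.02 and -0.07 over all tested genes. With read totals the DEGs were 2 higher and 53 lower, 1 higher and 37 lower, and 2 higher and 76 lower. Over all tested genes the lower DEGs with read totals made up 31.1%, 23.4% and 53.0%. With the replicate block the first comparison gave 12 higher and 8 lower, beside 6.10% higher and 5.51% lower of all tested genes. FtPinG0008443000.01 lay far below the list's median in each comparison, and Novel02020 lay above it.

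Among the AUX1 influx carriers, 6 of 7 were tested, and 4 were lower DEGs at 19 DPA vs 13 DPA, 2 at 25 DPA vs 19 DPA and 4 at 25 DPA vs 13 DPA, where 2 more were higher. Lower DEGs made up 4.46%, 19.5% and 25.6% of all tested genes in these comparisons, and higher DEGs 16.6% at 25 DPA vs 13 DPA. With read totals the AUX1 counts of lower DEGs were also 4, 2 and 4, beside 31.1%, 23.4% and 53.0% of all tested genes. The 2 higher ones were then not called. FtPinG0006908400.01 had 69.8, 37.1 and 42.4 FPKM at 13 DPA, 7.38, 1.54 and 4.53 FPKM at 19 DPA, and 0.0852, 0.484 and 0.107 FPKM at 25 DPA. It was the steepest of this family at the first step, with a log2 fold change of -2.72 (SE 0.54, adjusted p = 0.0194 in edgeR's quasi-likelihood test) at 19 DPA vs 13 DPA, and -3.95 (SE 0.65, adjusted p = 0.00237) at 25 DPA vs 19 DPA. FtPinG0007643300.01 averaged 10.1 ± 2.35, 1.76 ± 0.400 and 0.300 ± 0.186 FPKM at 13, 19 and 25 DPA (SD, n = 3 each), and was a lower DEG at both steps. FtPinG0003888700.01 averaged 19.2 ± 3.62, 3.73 ± 1.04 and 2.52 ± 1.18 FPKM (SD, n = 3 each), and was a lower DEG at the first step, but not at the second.

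Aux/IAA proteins repress ARFs, but the list's Aux/IAA family also holds the 3 genes that the study's text gives as ARFs. Whether other genes under this family name are ARFs was not checked. Without the 3 ARF genes, 55 of the family's 67 listed members were tested. Of these, 1 was a higher and 1 a lower DEG at 19 DPA vs 13 DPA. At 25 DPA vs 19 DPA 2 were higher and 12 lower, and at 25 DPA vs 13 DPA 4 were higher and 19 lower. These DEGs were 3.64%, 25.5% and 41.8% of the tested family, beside 8.57%, 28.8% and 42.2% of all tested genes, and the family medians were -0.26, -0.28 and -0.37 on the log2 scale. With read totals 1 was higher in each comparison, and 26, 13 and 33 were lower. Of all tested genes, 31.1%, 23.4% and 53.0% were lower DEGs with read totals. FtPinG0001577700.01 had 10.5, 13.95 and 5.97 FPKM at 13 DPA, 32.8, 29.4 and 15.9 FPKM at 19 DPA, and 7.81, 7.35 and 8.27 FPKM at 25 DPA, so that it was highest at 19 DPA. Its log2 fold change was 2.14 at 19 DPA vs 13 DPA (adjusted p = 0.0229 in edgeR's quasi-likelihood test) and -1.47 at 25 DPA vs 19 DPA (adjusted p = 0.0270). FtPinG0008442000.01 was the lower DEG of the first step, averaging 13.1 ± 7.72, 1.96 ± 0.927 and 1.42 ± 0.208 FPKM (SD, n = 3 each). At the second step FtPinG0007012600.01 and FtPinG0003331700.01 fell most among members of at least 1 FPKM, with log2 fold changes of -3.71 and -2.76.

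Of the ARG7 family, named for an early auxin-responsive gene, 27 of 80 listed members were tested. At 19 DPA vs 13 DPA 1 was a DEG, higher at 19 DPA, at 25 DPA vs 19 DPA 1 was higher and 9 were lower, and at 25 DPA vs 13 DPA 4 were higher and 14 lower. These were 3.70%, 37.0% and 66.7% of the tested family, beside the 8.57%, 28.8% and 42.2% of all tested genes. The family medians with TMM were -0.14, -2.10 and -1.40 on the log2 scale. With read totals there were 1 higher and 8 lower DEGs at 19 DPA vs 13 DPA, and the later comparisons had 10 and 17 DEGs, all lower. Lower DEGs with read totals made up 31.1%, 23.4% and 53.0% of all tested genes in these comparisons. The higher DEG of the first step, FtPinG0002363800.01, had 78.7, 57.6 and 79.3 FPKM at 13 DPA, 149.1, 122.2 and 147.5 FPKM at 19 DPA, and 62.2, 88.9 and 115.1 FPKM at 25 DPA. It rose by a log2 fold change of 1.79 at 19 DPA vs 13 DPA (SE 0.25, adjusted p = 0.00869 in edgeR's quasi-likelihood test), though by 0.96 and with no call when read totals were used. FtPinG0007966400.01 had 58, 46 and 67 reads at 13 DPA, 33, 4 and 18 reads at 19 DPA, and none in any library of 25 DPA, and was a lower DEG at the second step (adjusted p = 0.00474 in edgeR's test). FtPinG0001398200.01 also had no reads at 25 DPA, after 3 to 35 reads at 13 DPA and 2 to 16 reads at 19 DPA. Genes that passed the read filter only through their earlier libraries, as these did, could only be lower at 25 DPA. The family's shares of DEGs and its medians in comparisons with 25 DPA thus partly follow from the filter. This limit applies to the other families and to all tested genes as well.

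**Figure D5:**
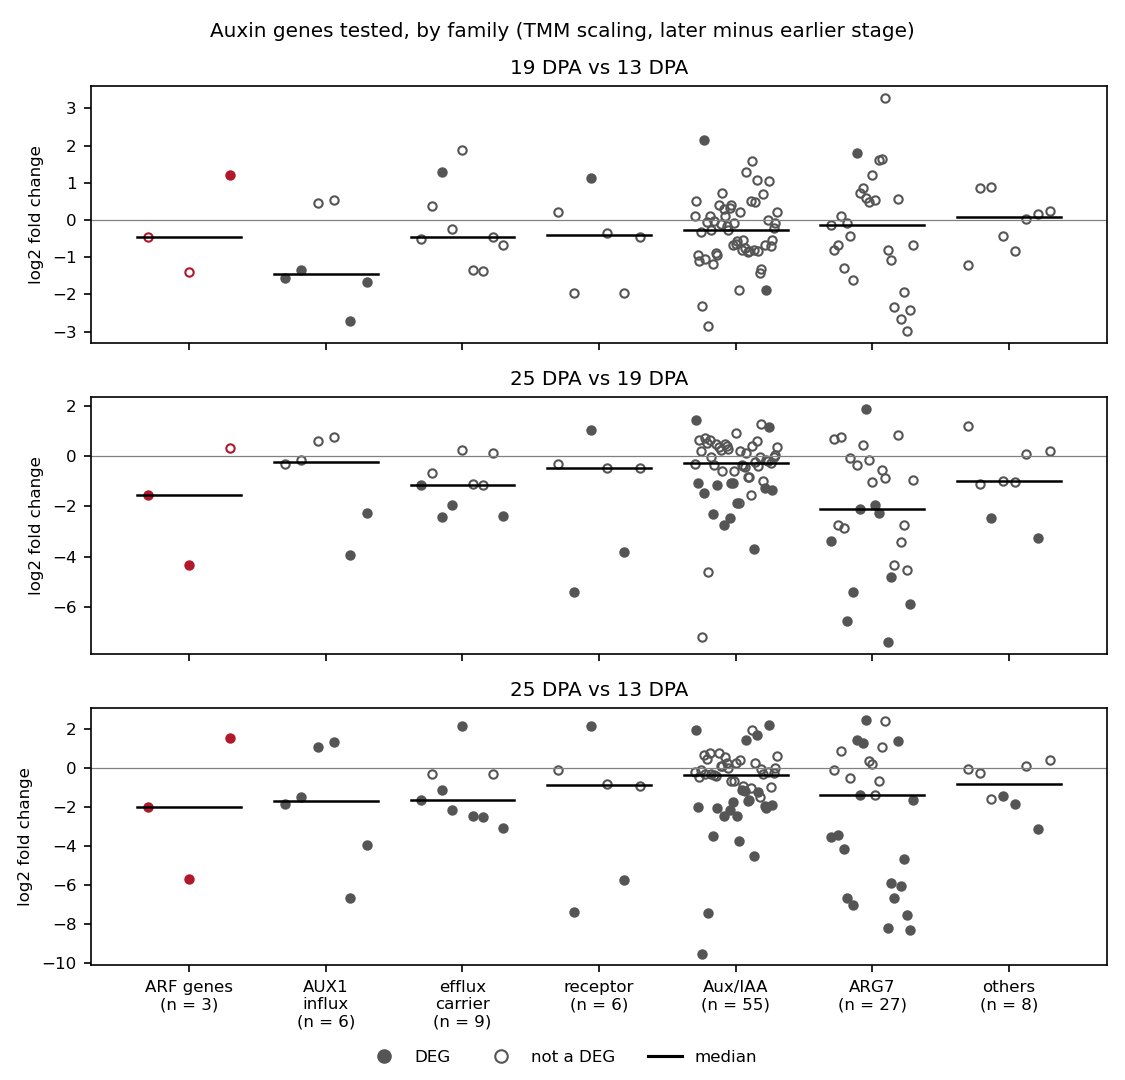
Log2 fold change with TMM (later minus earlier stage) of the 3 ARF genes and of the other tested auxin genes by family, with 1 panel per comparison. Filled points are DEGs, open points are not, and the line is the family median. Points of the ARF genes span 1.54 to -5.72 at 25 DPA vs 13 DPA, and the medians of all families lie below 0 in the lower 2 panels.

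The genes most like each ARF gene were sought by the Pearson correlation of log2 CPM (TMM) over the 9 libraries, given as a description, since libraries of a stage share that stage. For Novel02020 they were FtPinG0008413200.01 (r = 0.989), FtPinG0005706700.01 (r = 0.987) and FtPinG0009678200.01 (r = 0.983), none of them on the auxin list. FtPinG0008413200.01 had its lowest 25 DPA level in replicate 3 too, with 28.03, 22.01 and 11.98 FPKM there. In FPKM, however, FtPinG0005706700.01 averaged 6.23 ± 0.455, 5.04 ± 0.436 and 4.66 ± 0.987 at 13, 19 and 25 DPA (SD, n = 3 each), so genes sharing the TMM-scaled course of Novel02020 did not all rise in FPKM. Only 390 genes, 1.65% of those tested, had r above 0.9 with Novel02020, and its r with the other ARF genes was -0.67 for FtPinG0000807700.01 and -0.81 for FtPinG0008443000.01.

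The declining ARF genes had more company. FtPinG0000807700.01 was most like FtPinG0007614100.01 (r = 0.989), FtPinG0001018900.01 (r = 0.988) and FtPinG0008779200.01 (r = 0.988), each of which was also highest in replicate 3 of 13 DPA. FtPinG0008443000.01 was most like FtPinG0008701900.01 (r = 0.994), FtPinG0002194200.01 (r = 0.993) and FtPinG0005616500.01 (r = 0.993), and at 25 DPA these had 6 to 9, 0 and 1 to 3 reads per library. Genes with r above 0.9 numbered 1851 (7.84% of those tested) for FtPinG0000807700.01 and 2614 (11.1%) for FtPinG0008443000.01, and these ARF genes had r = 0.92 with each other. On the auxin list the closest to Novel02020 was the AUX1 carrier FtPinG0005765500.01 (r = 0.897), only at rank 413 by r among all genes compared. For FtPinG0000807700.01 it was the efflux carrier FtPinG0006941400.01 (r = 0.98, rank 27). For FtPinG0008443000.01 it was the ARG7 gene FtPinG0007966400.01 (r = 0.99, rank 14).

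Marker genes of the seed's tissues changed over the same stages. The 7 floral MADS-box genes summed to 554.4 to 728.6 FPKM in the libraries of 13 DPA, 274.9 to 373.2 FPKM in those of 19 DPA and 49.8 to 89.3 FPKM in those of 25 DPA. Of these genes 1 was a lower DEG at the first step, 5 were at the second step and 6 were over the whole span, where 4.46%, 19.5% and 25.6% of all tested genes were lower DEGs. The 2 WAXY genes, which encode the starch synthase of storage tissue, summed to 47.1 to 70.1, 17.8 to 34.4 and 5.38 to 13.3 FPKM at 13, 19 and 25 DPA. Both were lower DEGs at the second step and over the whole span. Most of these MADS-box and WAXY genes thus fell over the same stages as FtPinG0000807700.01 and FtPinG0008443000.01. The study named both WAXY genes as starch DEGs that went down in these same libraries. It also named a starch synthase gene that went up over the later step. The WAXY genes therefore do not stand for the other starch genes of the seed, which were not analysed here. The 2 glutelin genes, which encode seed storage proteins, were at 81.6 to 196.2, 38.5 to 45.1 and 74.6 to 94.7 FPKM in sum. Of them FtPinG0000417000.01 was a higher DEG at the second step and over the whole span. Higher DEGs made up 9.27% and 16.6% of all tested genes there. With read totals it was a higher DEG at the second step, beside 5.16% of all tested genes, but not over the whole span (log2 fold change 0.46). Both glutelin genes were then lower DEGs at the first step, beside 31.1% of all tested genes. Their 13 DPA reads were uneven, 229, 804 and 223 for FtPinG0000417000.01 and 2343, 5083 and 1873 for FtPinG0008579200.01. A single globulin gene, FtPinG0004288700.01, was at 0 to 0.110, 0.0355 to 0.838 and 0.793 to 2.87 FPKM and was a higher DEG over the whole span. It is a gene of low level that does not stand for the other globulin genes of the seed, which were not analysed here. No marker gene was at 0 in every library, and the part of a changing tissue make-up in the ARF results was not tested.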

How the data were processed

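Total RNA of whole seeds was sequenced as poly(A)-selected paired-end libraries (Illumina TruSeq kit). The authors aligned reads to the Pinku1 genome with TopHat2 2.0.12 (the processing notes also name Bowtie2 2.0.6) and predicted new genes with Cufflinks. The deposited read counts are whole numbers per gene, and the deposited FPKM values were computed by the authors from such counts with gene length and read total. The counting tool and its handling of strand and multiply mapped reads were not stated in the sources at hand, and reads shared with close gene copies were not analysed here. From the counts and FPKM, lengths of 2193, 3013 and 2490 bases follow for Novel02020, FtPinG0000807700.01 and FtPinG0008443000.01.

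Counts were fitted with edgeR 4.0.16 (R 4.3.3; TMM, filterByExpr, robust quasi-likelihood test, stage as the only term) over 9 libraries, with p-values adjusted by Benjamini-Hochberg over 23609 genes, and 10331 genes were left out by the filter. The study's fold limit carries no stated number, and 1 on the log2 scale was used. Ratios between genes were compared by exact permutation tests, two-sided. Alternatives were other scalings, DESeq2 1.42.0, limma 3.58.1 on log2(FPKM + 1) or log2(FPKM + 0.1), other filters, the pair of stages alone, and leaving out each library.

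Same-numbered libraries of 13 and 19 DPA had correlated deviations from their stage means (r = 0.35 to 0.59, against -0.48 to -0.11 for other pairs), while r was 0.03 to 0.20 for 25 and 19 DPA and -0.03 to 0.13 for 25 and 13 DPA. Deviations from a stage mean cancel out over the libraries of the stage. A positive r for same-numbered pairs therefore pushes the r of other pairs down, so this contrast is partly arithmetic. The labels say that the stages share plants, but not that a number marks a plant.

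Genes named are the 3 ARF genes, the 3 most correlated genes of each, the list's AUX1 genes given in the study's text, markers named by the study, and in each auxin family up to 2 DEGs per step with the largest fold change and at least 1 FPKM in the higher stage. FtPinG0005765500.01 and FtPinG0006941400.01 were named after their values were seen. The ARF genes, lists and tests were chosen with earlier results of these data known.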

Additional observations from a re-analysis of the deposited data

How the results depend on the processing

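The cause of the changes given here was not tested. At 19 DPA vs 13 DPA the call of Novel02020 was lost with read totals (log2 fold change 0.37). With totals without the 50 most abundant genes it was lost too (1.04, adjusted p = 0.0554 in edgeR's quasi-likelihood test). The same held for limma on log2(FPKM + 1), with or without a filter (0.34), and on log2(FPKM + 0.1) (0.37). The log2 fold change of Novel02020 ranged over 1.04 to 1.35 when a library was left out. For 25 DPA vs 13 DPA its call was lost with read totals (0.47) and the same limma fits (0.34, 0.36 and 0.34). For 25 DPA vs 19 DPA, never a call, the limma fits gave -0.0028, -0.010 and -0.0028. FtPinG0000807700.01 was called at 19 DPA vs 13 DPA with read totals (-1.31) and limma on log2(FPKM + 0.1) (-1.18), and lost its call at 25 DPA vs 19 DPA with limma on log2(FPKM + 1), with or without a filter (-0.88). FtPinG0008443000.01 was called at 19 DPA vs 13 DPA with read totals (-2.18), limma (-1.45, -2.26 and, without a filter, -1.45) and the replicate block (-1.55), and lost its call at 25 DPA vs 19 DPA with limma on log2(FPKM + 1), with or without a filter (-0.84), and where a level of 1 FPKM replaced the fold limit (-4.33). The ratios kept their direction with 0.1 or 1 added to each count in place of 0.5, without each library of the pair, and, at 19 DPA vs 13 DPA, within same-numbered pairs (chosen after seeing the data). The replicate block changed no other call of the ARF genes.

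DEGs among all genes at 19 DPA vs 13 DPA numbered 2024 (970 higher and 1054 lower), against 7941 with read totals (595 higher and 7346 lower), 3264 with DESeq2, 1303 with the 6 libraries of the pair, 6332, 8140 and 6165 with the limma fits, and 402 to 3065 when a library was left out. At 25 DPA vs 19 DPA they numbered 6793, and 4354 with limma without a filter. On the auxin list the 10 DEGs at 19 DPA vs 13 DPA became 55 with read totals, 21 with DESeq2, 20 with the replicate block, 52, 55 and 53 with limma, and 2 to 20 when a library was left out. The 37 DEGs at 25 DPA vs 19 DPA became 23 and 22 with limma on log2(FPKM + 1), with and without a filter. Depth limits FtPinG0008443000.01 at 25 DPA, where 6 reads in all were counted.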

Other observations

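Of the efflux carriers, which export auxin from cells, 9 of 14 listed members were tested, and 1 was a higher DEG at 19 DPA vs 13 DPA, 4 were lower DEGs at 25 DPA vs 19 DPA, and 1 was higher and 6 lower at 25 DPA vs 13 DPA (edgeR's quasi-likelihood test). These were 11.1%, 44.4% and 77.8% of the tested carriers, beside 8.57%, 28.8% and 42.2% of all tested genes. The medians of the carriers with TMM were -0.46, -1.13 and -1.63 on the log2 scale. With read totals the DEGs numbered 6, 4 and 8 and were all lower. Lower DEGs with read totals made up 31.1%, 23.4% and 53.0% of all tested genes. FtPinG0004913500.01 had 4.89, 5.05 and 5.13 FPKM at 13 DPA, 10.03, 5.82 and 5.20 FPKM at 19 DPA, and 0.667, 1.26 and 1.26 FPKM at 25 DPA. Its log2 fold change was 1.28 at 19 DPA vs 13 DPA (adjusted p = 0.0437 in edgeR's test; 0.48 and no call with read totals) and -2.41 at 25 DPA vs 19 DPA (adjusted p = 0.00154 in edgeR's test). FtPinG0009541700.01 averaged 11.3 ± 1.59, 4.04 ± 1.36 and 0.635 ± 0.224 FPKM at 13, 19 and 25 DPA (SD, n = 3 each), and was a lower DEG at the second step.

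The 6 genes that the study's list gives as auxin receptors differed in direction with TMM. That list puts 2 of them, FtPinG0008266700.01 and FtPinG0005922500.01, in the germin family, and whether their proteins bind auxin was not checked. In each comparison 1 was a higher DEG, beside 4.11%, 9.27% and 16.6% of all tested genes. In each comparison with 25 DPA the 2 germin-family genes were the lower DEGs, beside 19.5% of all tested genes against 19 DPA and 25.6% against 13 DPA. With read totals 4, 2 and 5 were lower DEGs in the 3 comparisons and 1 was a higher DEG at 25 DPA vs 13 DPA. Of all tested genes, 31.1%, 23.4% and 53.0% were then lower DEGs, and 6.22% were higher DEGs at 25 DPA vs 13 DPA. FtPinG0006955500.01 averaged 30.7 ± 1.86, 37.7 ± 4.61 and 64.0 ± 14.5 FPKM at 13, 19 and 25 DPA (SD, n = 3 each) and was a higher DEG at both steps with TMM, though at neither with read totals. FtPinG0008266700.01 averaged 59.6 ± 32.8, 8.80 ± 6.73 and 0.473 ± 0.206 FPKM (SD, n = 3 each), and was a lower DEG at 25 DPA vs 19 DPA, with a log2 fold change of -3.81 (adjusted p = 0.00388 in edgeR's test).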
